A study of Arabidopsis thaliana with 8 samples.

Results

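The 10 genes described here are AT4G29780 (probe set 253643_at), AT2G25735 (266658_at), AT1G76600 (259979_at), AT1G32920 (261193_at), AT4G27280 (253915_at), AT3G57450 (251640_at), AT4G34150 (253284_at), AT1G18740 (261405_at), AT1G74450 (260227_at) and AT1G19020 (259479_at). They are a named set of stress-induced genes whose products are little studied. Each was represented by a probe set of its own, so they make up 10 of the 22746 probe sets tested, of which 13513 carry the name of 1 gene. They were chosen by name, with their levels on these same arrays in view, and the levels and differences given for them are therefore descriptions, not tests. Leaf RNA of Arabidopsis thaliana was hybridised to 8 Affymetrix arrays, 2 in each of 4 groups. Plants of the wild type Col and of the transgenic line M6PR, named for mannose-6-phosphate reductase and called mannitol-producing in the series title, were grown without salt (Col 0 mM and M6PR 0 mM) or with NaCl at 100 mM (Col 100 mM and M6PR 100 mM). NaCl was given from day 14 after sowing, in steps of 50 mM every 2 days, and leaves were taken on day 20, when all groups were of the same age. Each array was hybridised with RNA from the leaves of 15 or more pooled seedlings from its pot. The p-values therefore measure the spread between the 2 pots of a group, pooled over the 4 groups. A comparison of unsalted groups thus also rests on the spread of the salted ones. The promoter that drives the transgene and the number of independent transgenic lines are not given in the sources used here. In their sample descriptions the M6PR plants are placed in Ws, an accession other than Col, so that accession and transgene cannot be told apart in any comparison of the lines. The Col array data also belong to another deposited study, per the labels, so a batch of their own cannot be told apart from the line either.

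Plants answer touch, wounding, cold, reactive oxygen and osmotic shock with a shared early wave of transcripts, often called the general or rapid stress response. These transcripts are made within minutes of a stimulus, many are short-lived, and calcium signals and CAMTA transcription factors are known to act upstream of many of them. The wave includes well-studied regulators such as the zinc finger factor STZ and, beside them, genes that recur in lists of stress-induced transcripts while their products remain poorly characterised. AT4G27280 encodes a small EF-hand calcium-binding protein and AT4G34150 a C2-domain protein, a type of domain that binds lipids and often calcium. AT4G29780 encodes a protein related to the nuclease-like proteins of Harbinger transposons. AT1G76600 encodes a protein with the plant domain DUF4228, and AT1G18740 and AT1G74450 encode proteins of 1 family with the domain DUF793. AT2G25735, AT1G32920, AT3G57450 and AT1G19020 encode proteins of little-known function.

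Values are log2 intensities as the authors deposited them. Array medians ranged from 5.03 to 5.32, and between 27.8% and 29.2% of all probe sets lay within 0.01 of the lowest value, 2.15. Values below log2 4 were treated as background, and a fold against such a value is a lower bound. The root mean square SD of replicates over probe sets was 0.172 in Col 0 mM and 0.248 in M6PR 0 mM, and 0.404 and 0.426 in the salted groups of the same lines. The first replicate labelled M6PR 100 mM had a Pearson r across probe sets of 0.983 with M6PR 0 mM replicate 1 and 0.982 with its own replicate, so where a salt difference in M6PR or a difference of the salted lines is given for a single gene, its value without that array is given too. A gene is called measured here if a probe set carries its name alone. Of the 22746 probe sets 8730 carry no gene name, so a gene that was not measured may still be on the array. Of 10 leaf marker genes 3 were measured (RCA, SBPASE and PRK), at 13.1 or more on every array. With salt in Col all 3 were lower, with a median difference of −0.49, and 1 of the 3, SBPASE, fell by 0.74 (limma, adjusted p 0.0452). Their part in the results for salt in Col was not tested. Of 10 root marker genes 3 were measured, and AT4G30170 lay at the floor of 2.15 on all arrays. AT5G17820 lay there on all but M6PR 100 mM replicate 1 (2.95). JAL33 lay at 2.18 on all but Col 100 mM replicate 1 (5.27), and its part in the values of that array was not tested. None of 5 flower organ genes was measured in this sense, so their levels were not examined. In RNA of whole leaves, a transcript made by more cells and more transcript per cell cannot be told apart.

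The 10 genes had the same lowest group. Each lay lower on both Col 0 mM arrays than on any of the other 6 arrays, a pattern that 6.96% of all probe sets showed. The highest group differed among them: it was Col 100 mM for 6 genes, M6PR 0 mM for 3 and M6PR 100 mM for 1. For those 6, both Col 100 mM arrays lay above the other 6 arrays, as for 11.9% of all probe sets. Salt in Col and the step from Col to M6PR without salt share the Col 0 mM arrays, so their values are given side by side and not as independent of each other.

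**Figure D1:**
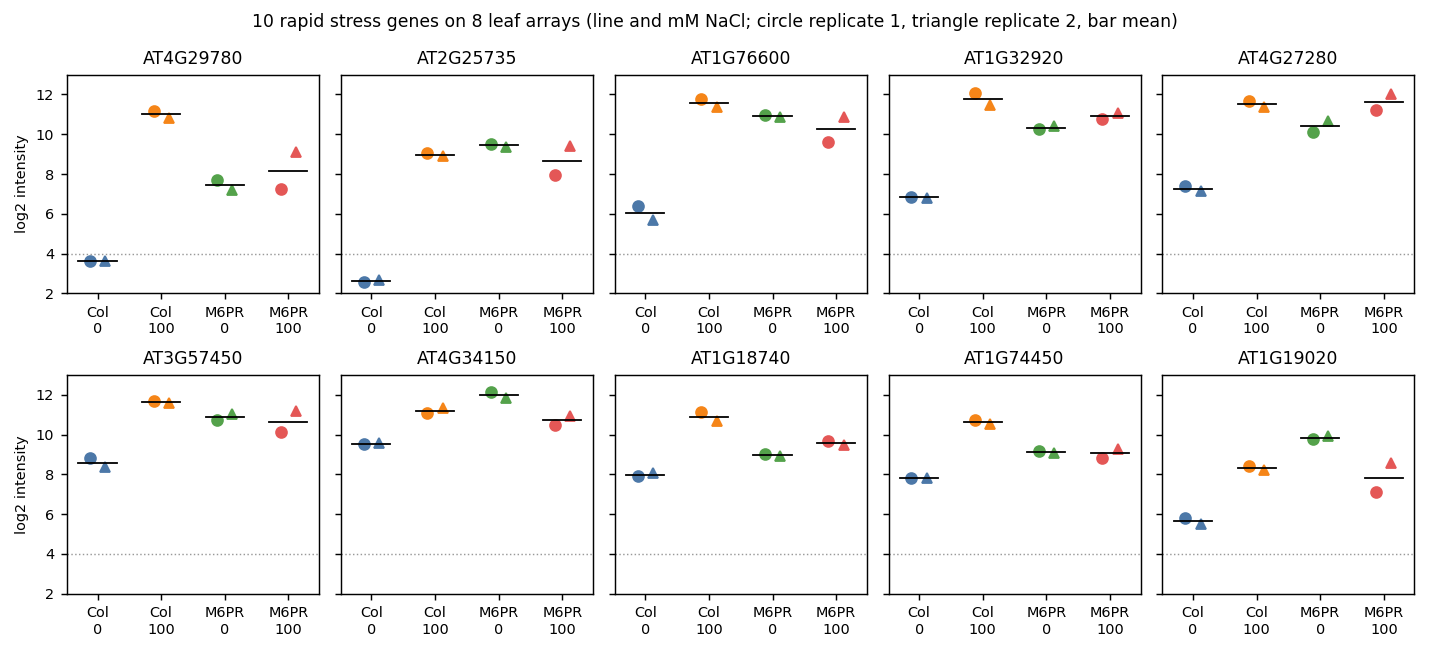
Log2 intensity of each of the 10 genes on every array, by line and mM NaCl; circles are replicate 1, triangles replicate 2, bars group means and the dotted line the background level of log2 4. The Col 0 mM arrays are lowest in all 10 panels, and the 2 M6PR 100 mM arrays lie apart in several of them.

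The nuclease-like gene AT4G29780 read 3.64 on both Col 0 mM arrays, which is below background. It read 11.17 and 10.82 in Col 100 mM, 7.70 and 7.20 in M6PR 0 mM, and 7.24 and 9.10 in M6PR 100 mM. The salted Col arrays were above all others, and the M6PR groups overlapped. Salted Col was at least 127.5-fold above unsalted Col, and unsalted M6PR at least 10.94-fold above it. Salted M6PR was below salted Col, with a log2 difference of −2.83, or −1.90 without M6PR 100 mM replicate 1, the widest gap of the 10 genes in that comparison in both cases.

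AT2G25735, also below background in unsalted Col (2.59 and 2.69), read 9.04 and 8.91 in Col 100 mM and 9.50 and 9.37 in M6PR 0 mM. The M6PR 100 mM arrays read 7.93 and 9.39. Unsalted M6PR thus lay above salted Col by 0.46 with no overlap, while salted M6PR overlapped both. Unsalted M6PR was at least 43.36-fold above unsalted Col, and salted Col at least 31.50-fold.

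The DUF4228 gene AT1G76600 read 6.38 and 5.69 in Col 0 mM and 11.78 and 11.39 in Col 100 mM. In M6PR it read 10.99 and 10.85 without salt and 9.61 and 10.87 with salt. The order of the means was Col 0 mM, M6PR 100 mM, M6PR 0 mM and Col 100 mM, and the 2 M6PR groups did not separate. The salt difference in Col was 5.55 (SE 0.50, 46.94-fold), and the difference of the unsalted lines was 4.88 (29.55-fold).

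AT1G32920 gave nearly equal readings in Col 0 mM (6.83 and 6.82). It read 12.07 and 11.44 in Col 100 mM, 10.25 and 10.42 in M6PR 0 mM and 10.77 and 11.09 in M6PR 100 mM. All 4 groups were separate for this gene, in the order Col 0 mM, M6PR 0 mM, M6PR 100 mM, Col 100 mM. The salt difference was 4.93 (SE 0.24) in Col and 0.59 in M6PR, or 0.75 without M6PR 100 mM replicate 1.

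The EF-hand gene AT4G27280 was the member with its highest mean in salted M6PR. It read 7.41 and 7.13 in Col 0 mM, 11.68 and 11.37 in Col 100 mM, 10.13 and 10.65 in M6PR 0 mM and 11.23 and 12.01 in M6PR 100 mM. Both salted M6PR arrays lay above both unsalted ones, by 1.23 on average (SE 0.34), the largest positive salt difference in M6PR among the 10 genes. Without M6PR 100 mM replicate 1 it was 1.62, and that of AT4G29780 was 1.65. The salted lines overlapped, with a difference of 0.10 which was 0.48 without M6PR 100 mM replicate 1 and turned its sign without Col 100 mM replicate 2 (−0.06) or M6PR 100 mM replicate 2 (−0.29).

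AT3G57450 read 8.80 and 8.37 in Col 0 mM, 11.70 and 11.60 in Col 100 mM, 10.73 and 11.02 in M6PR 0 mM and 10.12 and 11.18 in M6PR 100 mM. Its array profile was closest to that of AT1G76600 (Pearson r 0.984 over 8 arrays), the highest r of the 45 pairs. Like that gene, it was highest in salted Col and did not separate the M6PR groups.

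The DUF793 genes AT1G18740 and AT1G74450 had smaller differences between the unsalted lines than the other members. AT1G18740 read 7.90 and 8.08 in Col 0 mM, 11.12 and 10.69 in Col 100 mM, 9.01 and 8.93 in M6PR 0 mM and 9.68 and 9.45 in M6PR 100 mM. AT1G74450 read 7.80 and 7.84 in Col 0 mM, 10.72 and 10.54 in Col 100 mM, 9.15 and 9.06 in M6PR 0 mM and 8.83 and 9.29 in M6PR 100 mM. Both were highest in salted Col on every array. The salt differences in Col were 2.92 (SE 0.18) and 2.81 (SE 0.17), against 0.98 and 1.29 for unsalted M6PR minus unsalted Col. They parted in salted M6PR, where AT1G18740 was above its unsalted level on both arrays and AT1G74450 overlapped it. The profiles of these 2 genes had an r of 0.961 over the 8 arrays.

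The C2-domain gene AT4G34150 and AT1G19020 formed the other end of the set, with their highest level in unsalted M6PR. AT4G34150 read 9.52 and 9.56 in Col 0 mM, 11.08 and 11.32 in Col 100 mM, 12.11 and 11.83 in M6PR 0 mM and 10.46 and 10.95 in M6PR 100 mM, with all 4 groups separate. AT1G19020 read 5.80 and 5.49 in Col 0 mM, 8.43 and 8.23 in Col 100 mM, 9.79 and 9.91 in M6PR 0 mM and 7.10 and 8.55 in M6PR 100 mM. For both genes each unsalted M6PR array lay above the other 6 arrays, which 7.92% of all probe sets showed. Salted M6PR was lower than unsalted M6PR without overlap, by −1.27 (SE 0.21) for AT4G34150 and −2.02 (SE 0.51) for AT1G19020, whereas salted Col was higher than unsalted Col by 1.66 and 2.69. Without M6PR 100 mM replicate 1 the differences in M6PR were −1.02 and −1.30. The r of the pair was 0.980, while AT1G19020 had an r of 0.440 with AT1G18740, the lowest of the 45 pairs. The median r over the pairs was 0.892. All pairs share the same 8 arrays, and the low Col 0 mM arrays enter every r.

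**Figure D2:**
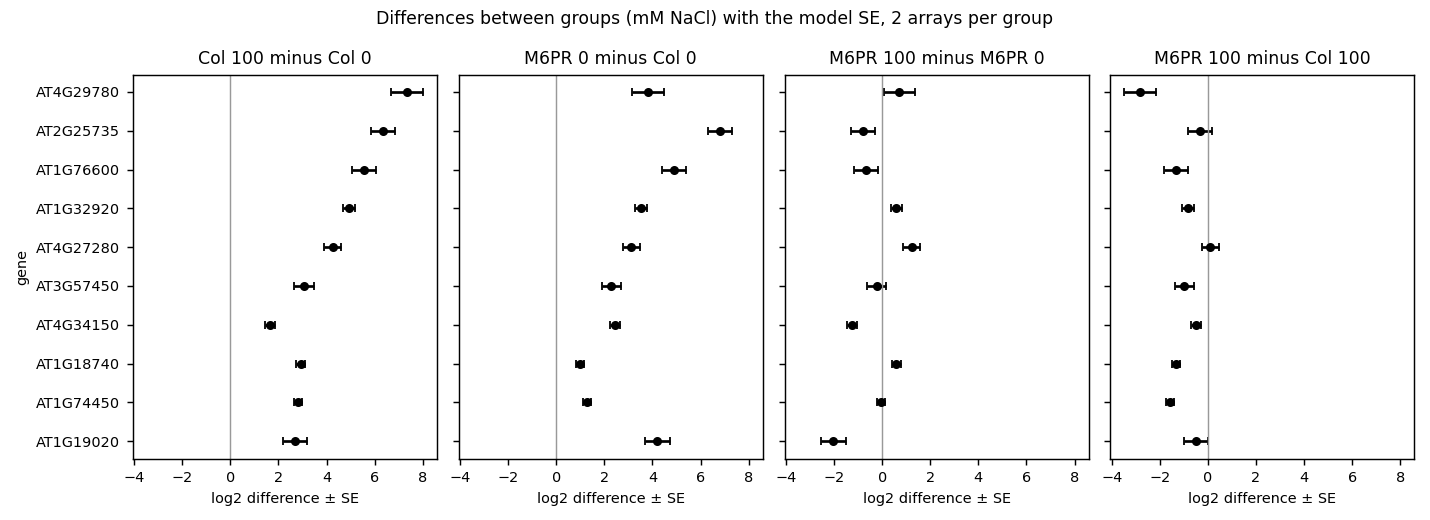
Log2 differences between groups with the model SE for each gene; panels are the 4 pairwise comparisons (mM NaCl after each line). The 2 comparisons with Col 0 mM lie right of 0 for all genes, from 1.66 to 7.35 for salt in Col and from 0.98 to 6.80 for the unsalted lines. AT4G29780 and AT2G25735 are below background in Col 0 mM, so their points in these 2 panels, and the upper ends of both ranges, are not measured sizes.

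For salt in Col, the median difference of the 10 genes was 3.66, against 0 over all probe sets. Salted Col was above unsalted Col without overlap for 10 of 10, as for 23.7% of all probe sets, and limma called 9 of them higher (Benjamini-Hochberg adjusted p under 0.05), as it did 2.25% of all probe sets. The exception was AT1G19020. Since the genes were chosen from these values, nothing is read from these counts. The number of members called ranged from 3 without Col 0 mM replicate 1, M6PR 0 mM replicate 1 or M6PR 0 mM replicate 2 to 10 without either M6PR 100 mM array. Leaving out Col 0 mM replicate 2 gave 4. Of the salted Col arrays, leaving out the first gave 5 and the second 7. The median difference itself stayed between 3.56 and 3.84 when single arrays were left out. It did not change without an M6PR array, since those arrays enter salt in Col only through the pooled spread.

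For M6PR against Col without salt, the median difference was 3.32 (3.29 with values below background set to log2 4), against 0 over all probe sets. Unsalted M6PR was above unsalted Col without overlap for 10 of 10 genes, as for 18.1% of all probe sets, and 9 were called higher, as were 3.97% of all. AT1G18740 was the exception. Leaving out M6PR 0 mM replicate 1 gave 1 call, leaving out Col 0 mM replicate 1 gave 2, leaving out the second replicate of either unsalted group gave 3, and there were 6 without either Col 100 mM array. The median lay between 3.14 and 3.47 without single arrays.

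Within M6PR, the 10 genes differed in the direction of their salt difference. The median difference was −0.14, against 0 over all probe sets, with a range from −2.02 (AT1G19020) to 1.23 (AT4G27280), or from −1.30 (AT1G19020) to 1.65 (AT4G29780) without M6PR 100 mM replicate 1. Salted M6PR was higher without overlap for AT1G32920, AT4G27280 and AT1G18740 (12.7% of all probe sets were), lower without overlap for AT4G34150 and AT1G19020 (15.7% were), and overlapped unsalted M6PR for the other 5. None of the 10 was called by limma, which called 0.171% of all probe sets and gave 2405 of them an unadjusted p under 0.05. Of the alternatives, centring on array medians called 1 of the 10 lower, and leaving out M6PR 100 mM replicate 2 called 2 lower.

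By the median over these genes, the salted M6PR arrays differed from each other more than those of other groups. AT1G32920 and AT1G18740 were exceptions, with a wider gap in Col 100 mM than in M6PR 100 mM. The median gap between replicates was 0.92 in M6PR 100 mM, 0.14 in Col 0 mM, 0.28 in Col 100 mM and 0.16 in M6PR 0 mM. Replicate 2 was the higher for 9 of 10 genes, as for 38.3% of all probe sets, and by over 1 log2 unit for 5, as for 5.79% of all. The widest gap was 1.86, for AT4G29780. On replicate 1, 6 of the genes lay below both unsalted M6PR arrays and 3 above, with a median difference of −0.52. On replicate 2, 2 lay below and 6 above, with a median of 0.25. AT4G34150 and AT1G19020 were below the unsalted arrays on both replicates, and AT1G32920, AT4G27280 and AT1G18740 above them on both. The sign of the salt difference in M6PR turned for AT4G29780 without replicate 2 (−0.21) and for AT3G57450 (0.31) and AT1G74450 (0.19) without replicate 1.

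**Figure D3:**
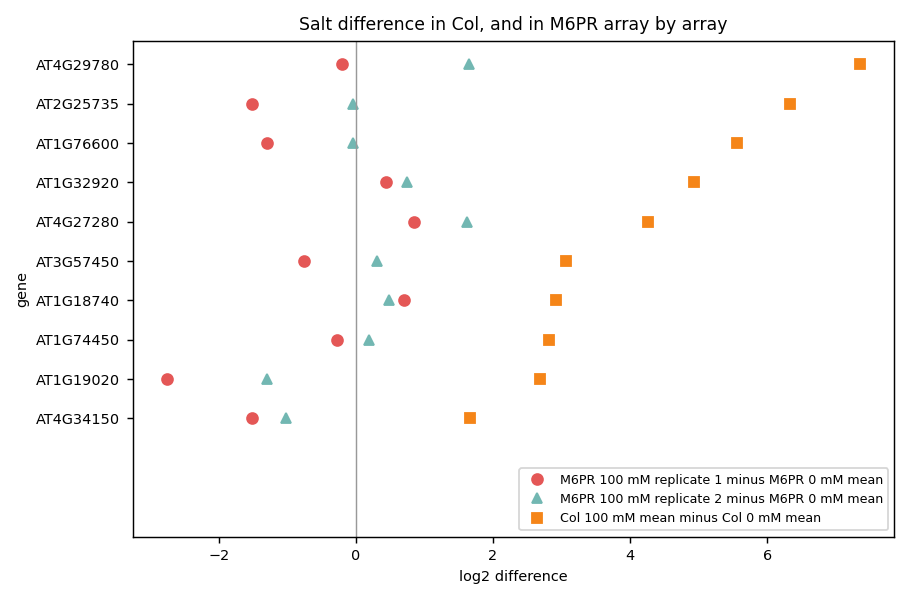
Salt differences per gene on the log2 scale: squares are the Col 100 mM mean minus the Col 0 mM mean, circles and triangles are M6PR 100 mM replicates 1 and 2, each minus the M6PR 0 mM mean. All squares lie right of all M6PR points of the same gene, and the 2 M6PR replicates lie on opposite sides of 0 for AT4G29780, AT3G57450 and AT1G74450.

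With salt in both lines, 9 of the 10 genes had a lower mean in M6PR than in Col, with a median difference of −0.91, against 0 over all probe sets. For 7 the arrays did not overlap, as for 19.1% of all probe sets in that direction. None was called by limma (0.136% of all probe sets were, and 2947 had an unadjusted p under 0.05), although 3 were when M6PR 100 mM replicate 2 was left out and 1 when Col 100 mM replicate 2 was. Centring, leaving out the dimmest 25% of probe sets, and leaving out the first replicates of both salted groups each called 1 lower. The median was −0.57 at its smallest and −1.23 at its largest when single arrays were left out, and −0.39 without the first replicates of both salted groups. Without M6PR 100 mM replicate 1 the difference turned positive for AT2G25735 (0.42) and AT1G19020 (0.22). The difference between the salt responses of the lines, M6PR minus Col, was below 0 for all 10, with a median of −3.82. It was called for 6, as for 0.932% of all probe sets in that direction. Without any one of the 4 unsalted arrays limma called 0 of the 10. It called 2 when the first salted Col array was left out, 4 when the second was, and all 10 without M6PR 100 mM replicate 2. It also called all 10 under centring and with the dimmest 25% left out, and 3 without the first replicates of both salted groups. The 6 were AT2G25735, AT1G76600, AT1G32920, AT4G34150, AT1G18740 and AT1G74450. Without M6PR 100 mM replicate 1 the number was again 6, but AT1G32920 and AT1G18740 lost the call and AT4G29780 and AT1G19020 gained it. All comparisons of this kind contain the Col 0 mM arrays on which the genes were lowest.

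A list of 55 other genes of the rapid stress response (transcription factors, calcium-binding proteins, signalling and turnover genes, jasmonate genes) was set beside the 10. Of the 55, 9 were measured as defined above. The other listed genes were not examined, so the values below describe the 9 and not the list as a whole. The list was written with earlier results of these data known, so its counts are descriptions and nothing is read from them. With salt in Col 6 of the 9 rose (limma, adjusted p under 0.05) and 0 fell, with a list median of 3.49, and 2.25% of all probe sets were called higher. The number that rose was 2 without either Col 0 mM array, Col 100 mM replicate 1 or either M6PR 0 mM array, and 7 without either M6PR 100 mM array. In unsalted M6PR against unsalted Col 4 of 9 were higher (3.97% of all probe sets were) and 0 lower, with a median of 1.01. The number was 0 without the first replicate of either group, 1 when M6PR 0 mM replicate 2 was left out and 2 when Col 0 mM replicate 2 was. For salt in M6PR and for the lines under salt 0 of 9 were called, as were 0.171% and 0.136% of all probe sets. The list medians were 0.12 and −0.72, or 0 and −0.37 with values below background set to log2 4, and an unadjusted limma p under 0.05 was found for 2405 and 2947 probe sets. Without M6PR 100 mM replicate 2 the numbers called were 1 and 4. For the difference between the salt responses 2 of 9 were called lower (0.932% of all probe sets were), with a median of −1.96, against 0 of 9 without any one of the Col or M6PR 0 mM arrays and 6 without M6PR 100 mM replicate 2.

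Among the transcription factors, STZ read 4.69 and 5.05 in Col 0 mM, 11.20 and 11.84 in Col 100 mM, 9.63 and 9.78 in M6PR 0 mM and 10.00 and 11.07 in M6PR 100 mM. It rose with salt in Col (6.65, adjusted p 0.01), a call that held without any single array. It was higher in unsalted M6PR than in unsalted Col (4.84, adjusted p 0.0131), but that call was lost without Col 0 mM replicate 1 (0.0658), M6PR 0 mM replicate 1 (0.0713) or M6PR 0 mM replicate 2 (0.0594). WRKY53, a factor known for its role in leaf senescence, read 5.05 and 4.95 in Col 0 mM and 8.33 and 8.65 in Col 100 mM. In M6PR it read 5.20 and 5.12 without salt and 6.46 and 6.93 with salt. It rose with salt in Col (3.49, adjusted p 0.00763), also without any single array. Unsalted M6PR was 0.16 above unsalted Col (adjusted p 0.879). The salt difference of WRKY53 in M6PR was 1.53 (adjusted p 0.106), and its difference between the salted lines was −1.80 (adjusted p 0.0978). Without M6PR 100 mM replicate 1 these were 1.77 (adjusted p 0.0842) and −1.56 (adjusted p 0.132).

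Of the calmodulin-like genes, CML38 read 4.80 and 4.79 in Col 0 mM, 9.18 and 8.97 in Col 100 mM, 9.72 and 9.67 in M6PR 0 mM and 8.11 and 9.29 in M6PR 100 mM. It rose with salt in Col (4.27, adjusted p 0.0186) and was higher in unsalted M6PR than in unsalted Col (4.90, adjusted p 0.0112). The first call was lost without either Col 0 mM array, Col 100 mM replicate 1 or either M6PR 0 mM array (adjusted p from 0.0663 to 0.0827), and the second without Col 0 mM replicate 1 (0.0552) or M6PR 0 mM replicate 1 (0.0647). CML37 was below background outside salted Col, where it read 4.46 and 4.01. It rose with salt in Col by at least 1.18-fold (adjusted p 0.0321), a call lost without either Col 0 mM array, Col 100 mM replicate 1 or either M6PR 0 mM array (adjusted p from 0.0815 to 0.133). Salted Col was at least 1.18-fold above salted M6PR (adjusted p 0.151, or 0.304 without M6PR 100 mM replicate 1). With a background level of log2 5 CML37 was below background in all groups and has no fold. The calcium-binding list gene AT2G46600 had a salt difference in Col of −1.15 (limma, adjusted p 0.133), opposite in sign to both CML genes. PUB23, a ubiquitin ligase of the U-box type, rose with salt in Col by 3.76 (adjusted p 0.0253) and was higher in unsalted M6PR by 3.38 (adjusted p 0.0226). AR781 rose with salt in Col by 3.66 (adjusted p 0.0163) and was higher in unsalted M6PR by 2.14 (adjusted p 0.0336). Each of these 4 calls of PUB23 and AR781 was lost without either Col 0 mM array or either M6PR 0 mM array. Their salt calls in Col were also lost without Col 100 mM replicate 1 (adjusted p 0.0513 and 0.0575), and the call of AR781 between the unsalted lines also without either Col 100 mM array (0.081 each).

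**Figure D4:**
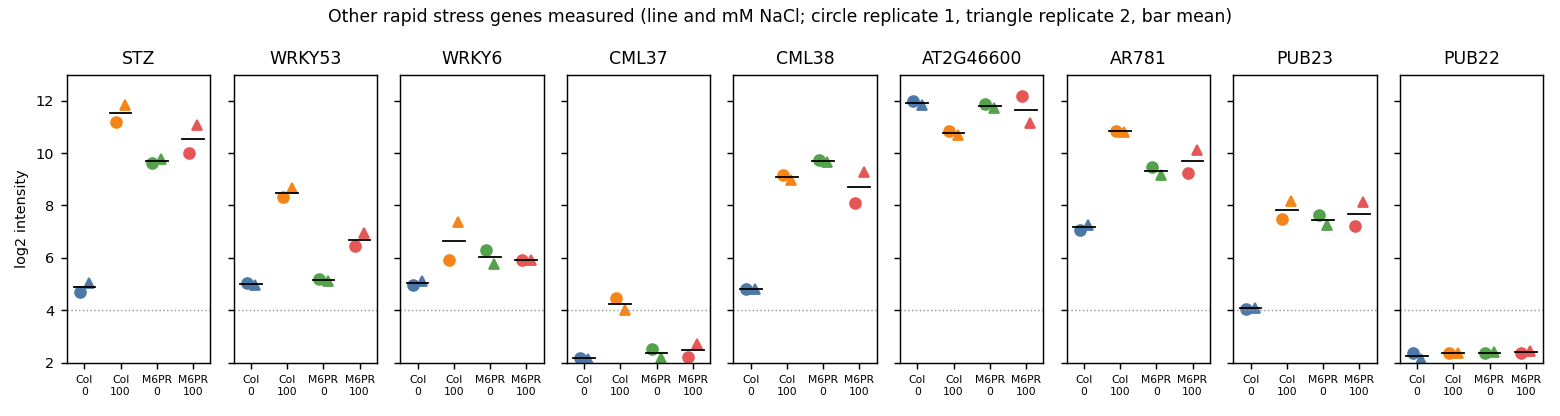
Log2 intensity of the 9 other rapid stress genes on every array, by line and mM NaCl; circles are replicate 1, triangles replicate 2, bars group means and the dotted line the background level. STZ, WRKY53, WRKY6, CML38, AR781 and PUB23 are lowest on the Col 0 mM arrays, with WRKY53 at about 5 in both unsalted groups. AT2G46600 is lowest on the Col 100 mM arrays, and PUB22 is below background throughout.

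Of 8 listed relatives of the members 3 were measured, and none of the 3 passed the limma test in any comparison (among all probe sets, 6210 had an unadjusted p under 0.05 for salt in Col). AT1G21010, a DUF4228 gene like AT1G76600, read 6.12 and 6.36 in Col 0 mM, 7.41 and 7.85 in Col 100 mM, 7.69 and 7.17 in M6PR 0 mM and 7.56 and 7.54 in M6PR 100 mM. Its differences of 1.39 for salt in Col (adjusted p 0.0551) and 1.19 for the unsalted lines (adjusted p 0.0701) missed the threshold. AT5G12010, a nuclease-like relative of AT4G29780, read between 7.88 and 8.94 on all arrays, and its salt difference in Col was 0.12 (adjusted p 0.879). AT2G46600, an EF-hand gene related to AT4G27280 and also counted in the rapid stress list above, had a salt difference in Col of −1.15 (adjusted p 0.133). This was opposite in sign to its relative. Whether a member and its relative differ in response was not tested.

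Genes next to the members on the chromosome were also read, with gene order taken from the RefSeq annotation TAIR10.1. Of the 20 adjacent protein-coding genes 12 were measured. AT4G27290, AT3G57440, AT3G57460, AGL65 and AT1G19025 were below background in every group, so their differences are not measured sizes but enter the medians. The median differences of the 12 were −0.05 for salt in Col and −0.01 for the unsalted lines. In each comparison 1 of 12 was called higher, as were 2.25% and 3.97% of all probe sets. That gene was AT1G76590, next to AT1G76600, which encodes a zinc-binding protein of the PLATZ family. It read 6.35 and 6.59 in Col 0 mM, 7.49 and 7.90 in Col 100 mM, 8.57 and 8.46 in M6PR 0 mM and 8.30 and 8.01 in M6PR 100 mM, so all 4 groups were separate. It was 2.05 higher in unsalted M6PR than in unsalted Col (SE 0.19, adjusted p 0.0138), a call lost without Col 0 mM replicate 1 (0.0659), M6PR 0 mM replicate 1 (0.08) or M6PR 0 mM replicate 2 (0.0579). Its rise with salt in Col, 1.23 (adjusted p 0.0471), was lost without any of Col 0 mM replicates 1 and 2, Col 100 mM replicates 1 and 2 and M6PR 0 mM replicates 1 and 2 (adjusted p from 0.0642 to 0.187).

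The genes whose profiles over the 8 arrays were most like the mean profile of the 10 were taken from 1192 named probe sets with a mean of at least log2 5 and a range of at least 2. In order of r they were AT3G56880 (0.994), which encodes a VQ-motif protein, AT2G27080 (0.991), AT1G27100 (0.982), STZ (0.981), the pectin methylesterase gene ATPMEPCRB (0.980), AT1G05575 (0.977), the tetraspanin gene TET8 (0.975) and AT1G23710 (0.974). AT3G56880 read 8.44 and 8.11 in Col 0 mM, 12.07 and 12.29 in Col 100 mM, 11.24 and 11.54 in M6PR 0 mM and 11.06 and 11.75 in M6PR 100 mM. AT2G27080 had means of 4.24 in Col 0 mM, 10.23 in Col 100 mM, 9.45 in M6PR 0 mM and 9.42 in M6PR 100 mM. TET8 had means of 9.20, 11.97, 11.96 and 11.22 in the same order, and so did not separate salted Col from unsalted M6PR by mean. The members' own r with the mean profile ran from 0.832 (AT1G19020) to 0.995 (AT1G76600). The most opposite profiles were those of AT3G01660 (−0.980), AT1G29120 (−0.977), the acyltransferase-family gene AT2G40230 (−0.975) and AT5G61340 (−0.971). AT3G01660 was highest in unsalted Col (mean 7.96) and lowest in salted Col (5.86). Likeness was measured on the arrays on which the genes were chosen, and the low or high Col 0 mM arrays enter every such r.

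**Figure D5:**
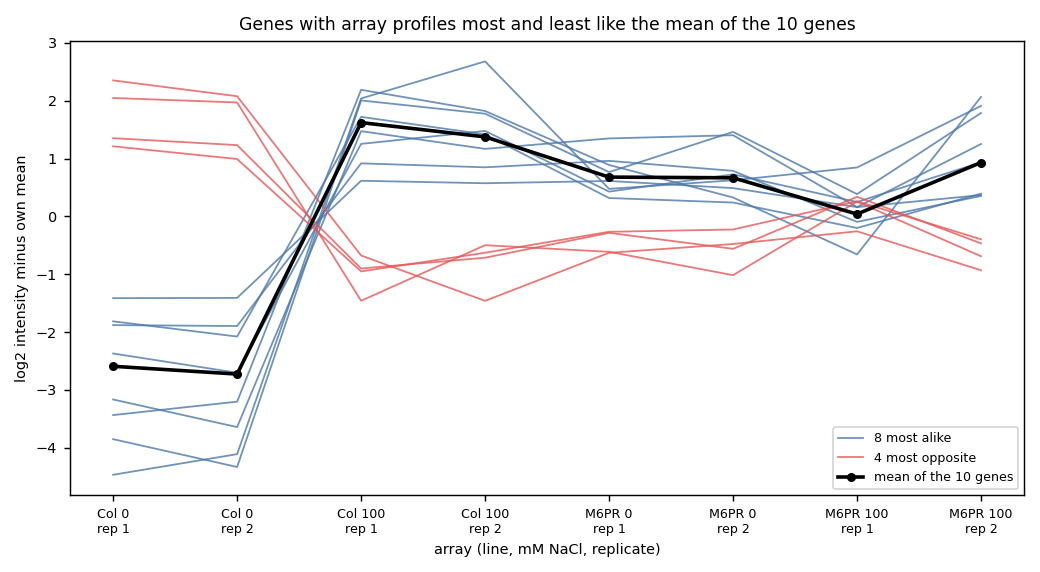
Log2 intensity minus each gene's own mean over 8 arrays, for the mean of the 10 genes (black), the 8 most alike genes (blue) and the 4 most opposite (red); lines only link a gene's values. The black line is at −2.59 and −2.73 on the Col 0 mM arrays and between 0.04 and 1.62 on the other 6.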

How the data were processed

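The authors deposited a table of log2 intensities with a row per probe set, made with GCOS and RMA per the submitters' processing notes, whose versions and background model are not given in the sources used here. Groups were read from the sample titles. After 64 array controls were left out of 22810 rows, a model with 4 group means was fitted to 22746 probe sets (limma 3.58.1, R 4.3.3). Variances were moderated by empirical Bayes (4 residual and 0.409 prior degrees of freedom), and two-sided p-values were adjusted over all of them by Benjamini-Hochberg with a threshold of 0.05. The number of arrays limits the precision. Gene names come from the array's probe table (13513 probe sets with 1 gene, 503 with several, 8730 with none), matched to RefSeq TAIR10.1. All 10 genes matched, 8 by gene number and 2 by locus name alone.

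The members, lists and alternatives were chosen with earlier results of these data known. The background level of log2 4 was set after the values were seen, and the neighbour comparison was added. All 10 members are named. The other names are up to 4 called list genes per direction and comparison (the 2 of smallest p where none was called), all measured relatives, and the 8 most alike and 4 most opposite profiles. Where an array is left out, the remaining array of its group is assumed to vary like the other groups. A comparison without that group keeps its differences. Its calls can still change, through the pooled spread and its degrees of freedom. The fit was tested on simulated data. The labels give no shared origin for replicate numbers.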

Additional observations from a re-analysis of the deposited data

Results flagged for a closer look

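Given here are genes named above whose salt response was called different between the lines (limma interaction test over all probe sets, adjusted p under 0.05). Values are M6PR minus Col on the log2 scale. Of the genes not called, only AT1G19020 is listed below. Others had wide differences too, such as −6.63 for AT4G29780 (adjusted p 0.0624) and −6.01 for AT2G27080 (adjusted p 0.0568). AT4G29780 was below background in unsalted Col, so its value is not a measured size. For the members, which were chosen on these arrays, these differences are descriptions, and so they are for genes picked by a like profile. The same holds for STZ and CML38. Their list was written with earlier results of these data known, and STZ is also among the genes of like profile. The differences were −7.12 for AT2G25735, −6.23 for AT1G76600, −4.34 for AT1G32920, −2.93 for AT4G34150, −2.86 for AT1G74450 and −2.33 for AT1G18740. AT2G25735 was below background in unsalted Col, so its value is not a measured size and takes no rank; with that group set to log2 4 it was −5.75. Among other rapid stress genes they were −5.82 for STZ (AT1G27730) and −5.27 for CML38 (AT1G76650). Both of these were called with all arrays (adjusted p 0.041 and 0.0414). They lost the call without any one of the Col arrays or either M6PR 0 mM array, with adjusted p from 0.051 to 0.121 for STZ and from 0.0571 to 0.129 for CML38. Among the genes of like profile they were −5.39 for ATPMEPCRB (AT4G02330), −3.89 for AT3G56880, −3.70 for AT1G23710, −3.52 for TET8 (AT2G23810) and −2.29 for AT1G27100. Their adjusted p ran from 0.0111 (AT1G27100) to 0.0415 (ATPMEPCRB) with all arrays. How these calls hold without single arrays is not given here. AT1G19020 and AT4G34150 went up with salt on both Col arrays and down on both M6PR arrays. The difference of AT4G34150 was called, as given above. That of AT1G19020 was −4.71, or −3.98 without M6PR 100 mM replicate 1. With all arrays it did not pass the interaction test (adjusted p 0.0689).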

How the results depend on the processing

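With 1 array left out at a time, the number of probe sets called ranged from 253 to 2607 for salt in Col, 10 to 829 for salt in M6PR, 533 to 1824 for the unsalted lines, 7 to 1212 for the salted lines and 248 to 2234 for the difference between salt responses. In the same order, the median of the 10 genes ranged from 3.56 to 3.84, −0.52 to 0.25, 3.14 to 3.47, −1.23 to −0.57 and −4.16 to −3.37, and the rapid stress list genes called from 2 to 7, 0 to 1, 0 to 4, 0 to 4 and 0 to 6. With all arrays the probe sets called were 1193, 39, 1599, 31 and 330. A further quantile normalization and a trended, robust prior moved none of these counts by over 1.5 times and no median by over 0.20. That limit is the pooled SD within groups of each array's median over the 10 genes.

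Centring on array medians called 4254 probe sets for salt in Col (1388 higher, 2866 lower, against 512 and 681), 244 for salt in M6PR (46 higher, 198 lower, against 2 and 37), 139 for the salted lines (77 higher, 62 lower, against 8 and 23) and 1022 for the interaction (470 higher, 552 lower, against 118 and 212). It moved the median of all probe sets by −0.22, −0.02, 0.20 and 0.20 and the member median for salt in Col to 3.44. List genes called became 1 for salt in M6PR, 1 for the salted lines and 6 for the interaction. Leaving out the dimmest 25% refits the variance prior and also leaves fewer probe sets to adjust for. It called 3491 for salt in Col, 116 for salt in M6PR, 70 for the salted lines and 1025 for the interaction. List genes called were 1 and 6 in the last 2. With only the arrays compared limma called 792 for salt in Col, 0 for salt in M6PR and 0 for the salted lines (with all arrays 2405 and 2947 had an unadjusted p under 0.05). Without Col 100 mM replicate 1 and M6PR 100 mM replicate 1 together it called 1814 for salt in Col, 435 for salt in M6PR, 587 for the salted lines and 900 for the interaction, with 1 list gene in each of the middle 2, and the member medians were 0.25 for salt in M6PR, −0.39 for the salted lines and −3.34 for the interaction. The cause was not tested.

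The replicate number as a block called 497, 13, 970, 3 and 53 probe sets in the order above. It called 5 members in each of the 2 comparisons with Col 0 mM and 0 in the interaction, and 3 list genes for salt in Col and 0 for the interaction. Same-numbered arrays deviated together with r of 0.49 for M6PR with and without salt and 0.02 for Col. Since the labels give no shared origin for these numbers, they were not taken as pairs in the main fit. Whether same-numbered M6PR arrays share an origin was not tested. For the salted lines the r of same-numbered arrays was −0.15, and crossing the Col 100 mM numbers, chosen after seeing the data, also called 3. Of 600 recomputed member differences 12 changed sign, 6 for salt in M6PR and 6 for the salted lines, none of them called. A background level of log2 5 lowers the bounds of AT4G29780 to 63.76-fold and 5.47-fold and those of AT2G25735 to 15.75-fold and 21.68-fold. At that level the folds of PUB23 for salt in Col and for the unsalted lines, 13.53 and 10.39 as measured, become at least 7.10 and 5.45, those of STZ and CML38 become bounds too, and CML37 has none. The promoter motif search was not run.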
